A study of Mus musculus with 27 samples.

Results

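The replication-dependent histone genes were followed in RAW264.7 cells, an established mouse macrophage line, by total RNA sequencing and by sequencing of RNA recovered with an antibody against the RNA-binding protein HuR. The members were the genes of the deposited count table whose symbols begin with H1f, H2ac, H2bc, H3c or H4c followed by a digit and whose transcript biotype includes protein coding. This rule gave 60 of 55483 genes, of which 10 encode the linker histone H1, 14 encode H2A, 14 H2B, 12 H3 and 10 H4. A further 3 genes with such names but only pseudogene biotypes were left out. The rule uses names and biotypes and no measured value, but it was chosen with earlier results of these data known.

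The study asked how the LPS response of these cells changes when HuR is interfered with, per its title and design text. Cells were kept for 6 h in 1 of 3 treatments, at 30 M cells per sample. DMSO, the solvent, was the control. LPS, lipopolysaccharide from the outer membrane of bacteria and a strong activator of macrophages, was given at 1 µg/ml, with DMSO. TM7nox, one of the tanshinone mimics, compounds designed to interfere with the binding of HuR to RNA, was given at 10 µM together with LPS. The samples carry no named genetic change, and no sample had TM7nox without LPS. Total RNA was sequenced in 4 libraries per treatment. Ribonucleoprotein immunoprecipitation (RIP) with anti-HuR was sequenced in 4 libraries per treatment, and with control IgG in 1 library per treatment, always replicate 3. All cells are of 1 line. The labels do not say whether replicates were separate cultures, so p-values may measure technical spread only.

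Histones package DNA: H2A, H2B, H3 and H4 form the core of the nucleosome, and H1 binds the linker DNA between cores. Most of these genes lie in clusters, are transcribed mainly in S phase to supply new chromatin, and give mRNAs that end in a conserved stem-loop in place of a poly(A) tail. The stem-loop is bound by SLBP, which acts in the processing, translation and stability of the mRNA, and histone mRNAs are degraded when DNA synthesis stops. HuR, encoded by Elavl1, binds U-rich and AU-rich stretches, many of them in mRNAs of the immune response.

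The stem-loop was looked for in the genome (GRCm39) in the 200 bases after the stop codon, on the strand of the gene only, as GGNNCT, a loop of 4 bases and AGNNCC with complementary arms. It was found in 55 of the 60 members and in 20 of 21594 other protein coding genes (0.0926%). The first base of the stem lay 22 to 59 bases after the stop codon. The members without it were H1f0, H1f10, H1f7, H1f8 and H2bc21. H1f0 and H1f10 are known as linker histones made outside S phase, so the names take in a few genes that are not replication-dependent in the strict sense. The 55 stem-loops had 8 sequences. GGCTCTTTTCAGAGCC was found in 34 members of the H1, H2A, H2B and H3 classes and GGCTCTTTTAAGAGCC in 9 members of the same classes. The 10 H4 genes had other stems, with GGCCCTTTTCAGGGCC in 5 of them. The sites shown here cover each of the 8 sequences and the members that the results turn on. The arms are in capitals and the loop in lower case between them.
H1f2, chr13:23923490-23923515, plus strand: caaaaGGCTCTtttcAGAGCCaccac
H2ac10, chr13:23718524-23718549, plus strand: ccaaaGGCTCTtttcAGAGCCaccac
H3c15, chr3:96145796-96145821, minus strand: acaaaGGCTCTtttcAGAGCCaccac
H2bc3, chr13:23931181-23931206, plus strand: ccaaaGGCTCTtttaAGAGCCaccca
H2ac20, chr3:96127729-96127754, minus strand: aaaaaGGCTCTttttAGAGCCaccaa
H3c8, chr13:23720054-23720079, plus strand: ttaaaGGCTCTtcttAGAGCCaccca
H4c4, chr13:23765928-23765953, plus strand: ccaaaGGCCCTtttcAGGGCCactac
H4c9, chr13:22225131-22225156, minus strand: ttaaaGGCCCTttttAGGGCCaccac
H4c1, chr13:23944778-23944803, minus strand: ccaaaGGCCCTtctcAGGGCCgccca
H4c11, chr13:21919602-21919627, plus strand: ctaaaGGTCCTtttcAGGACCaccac

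H2ac10 differed from the other members in the bases before its stem-loop. A run of 27 T lies between its stop codon and its stem-loop. The next longest run in the same window was 11 T, in H2bc11, and the median was 4 in the members and 4 in other coding genes. A run at least as long as that of H2ac10 was found in 12 of the 21594 other coding genes (0.0556%). The site is shown because H2ac10 had the highest recovery with anti-HuR among the members. The T run is in capitals.
H2ac10, chr13:23718486-23718515, plus strand: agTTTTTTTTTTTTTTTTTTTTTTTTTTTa

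Promoter sequences, from RefSeq on GRCm38.p6 and from 250 bases before to 50 bases after the start of each gene, matched 55 members. The octamer ATTTGCAT, the motif bound by OCT1 and named for histone H2B promoters, was looked for on both strands. It was found in 12 of the 55 members (21.8%), against 570 of 32851 promoters of the table (1.74%). These were 6 of 14 H2A genes and 6 of 12 H2B genes, and no H1, H3 or H4 gene had it. Divergent H2A and H2B pairs share a promoter region, so the 12 members had 9 distinct octamer positions, 25 to 200 bases before the start. CCAAT was found in 83.6% of the members, against 37.4% of all promoters, and TATAAA in 54.5%, against 13.6%. A match is a description of letters and not evidence of binding. The sites of 3 members with values in the results are shown, with the octamer in capitals, read on the strand of the gene.
H2bc3, chr13:23746634-23746661 of GRCm38.p6, plus strand: tgagtctcttATTTGCATaaagcctttg
H2bc8, chr13:23571331-23571358 of GRCm38.p6, plus strand: tgagtcccttATTTGCATagaacctcta
H2ac20, chr3:96221063-96221090 of GRCm38.p6, minus strand: tgaacgccttATGCAAATtaggtctcaa

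The genes resemble each other closely, which limits what a count for one copy means. On GRCm39, 46 members lie on chromosome 13, 10 on chromosome 3 and 4 elsewhere, and 57 have 1 exon. A median of 55.2% of the 50-base windows of a member's transcript occurred in no other transcript. The share was under 50% in 25 members and 100% in 8. The class medians were 100% for H1, 37.4% for H2A, 53.2% for H2B, 38.0% for H3 and 65.8% for H4. All 10 H4 genes encode 1 protein and the 12 H3 genes encode 2, while the 10 H1 genes encode 10. How the counting treated reads that map to several genes, and whether strand was used, is not given in the sources used here, so values of single H2A, H3 and H4 copies are uncertain. Annotated spans also overlap for H1f4 with H2bc6 on 1 strand, and on opposite strands for H4c4 with H2bc6 and for H2bc3 with H3c3.

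The libraries held 2.73 M to 41.4 M counts. RNA DMSO replicate 1 was the shallowest, against 16.3 M to 28.3 M in the other RNA libraries, and it stood apart in how its histone counts were divided. H2B genes took 0.435% of its counts, against 0.181 to 0.223% in the other DMSO libraries, and H2A genes took 0.00689%, against 0.0158 to 0.0235%. The ratios of DMSO to LPS by class and the LPS fold changes of H2bc8 and H3c8 are given with and without it. Fold changes of most other members are given with it only. Mitochondrially encoded genes took 12.1 to 22.4% of RNA counts, 0.559 to 1.86% of anti-HuR counts and 5.31 to 6.13% of IgG counts. The 9 macrophage markers summed to between 4496 and 5926 CPM (TMM-scaled counts per 1 M counts) in RNA DMSO, between 3502 and 5170 under LPS, and between 2541 and 4966 under LPS+TM7nox. Markers of other cell types were near 0: the highest sum in any RNA library was 0.232 CPM for 4 T cell markers, 0.225 for 3 B cell markers, 0.395 for 4 fibroblast markers, 0.385 for 4 epithelial markers and 0 for 2 erythroid markers. Of 9 macrophage markers, LPS raised 5 (Adgre1, Fcgr1, Itgam, Ptprc and Spi1) and lowered Csf1r, where 20.2% of all genes tested rose and 21.7% fell. Elavl1 mRNA averaged 90.2 ± 18.5 CPM (SD, n = 4) in RNA DMSO, 2645 ± 560.2 in anti-HuR DMSO and 60.7 in the IgG DMSO library. It was not called between LPS and DMSO in RNA (log2 fold change 0.24, FDR 0.255), and in DMSO its log2 ratio of RIP over RNA was 5.00 (FDR 5.76e-15).

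Histone mRNA was most abundant in DMSO. The 60 members together took 0.946 ± 0.0666% of all counts (SD, n = 4) in RNA DMSO, with a range of 0.852 to 1.01%. Their share was 0.150 ± 0.0392% in LPS (0.106 to 0.201%) and 0.206 ± 0.0219% in LPS+TM7nox (0.185 to 0.232%). The DMSO libraries lay above all LPS libraries, by a ratio of means of 6.31, or 6.28 without RNA DMSO replicate 1. LPS+TM7nox was above LPS by a ratio of means of 1.38, and above it in each of the 4 same-numbered pairs, although the ranges of the 2 groups overlapped. On the TMM scale those ranges did not overlap, with summed levels of 877 to 1493 CPM in LPS and 1606 to 1843 CPM in LPS+TM7nox. As a share of coding counts without mitochondrial genes they did not overlap either, at 0.140 to 0.243% and 0.256 to 0.302%. These sums do not depend on how counted reads were divided among copies of 1 class. If reads that map to several genes were left out of the counts, the sums are too low, which was not tested. H2ac19 and H3c14, with 0% unique windows, had no count in any library.

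Each class had its lowest mean share in LPS. The mean share of the H1 genes was 0.314% in DMSO, 0.0478% in LPS and 0.0730% in LPS+TM7nox. For H2A the means were 0.0174, 0.00285 and 0.00366%, and for H2B 0.257, 0.0327 and 0.0423%. For H3 they were 0.108, 0.0141 and 0.0195%, and for H4 0.250, 0.0524 and 0.0679%. The ratio of DMSO to LPS was 6.57 for H1, 6.10 for H2A, 7.86 for H2B, 7.66 for H3 and 4.77 for H4. Without RNA DMSO replicate 1 the DMSO mean was 0.198% for H2B and 0.0209% for H2A, and the ratios were 6.88, 7.33, 6.04, 8.59 and 5.20. The order of H2A, H2B and H3 thus depends on that library, while H4 had the lowest ratio with and without it. A lower share in bulk RNA does not tell fewer cells of a kind, such as cells in S phase, from less RNA per cell.

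**Figure D1:**
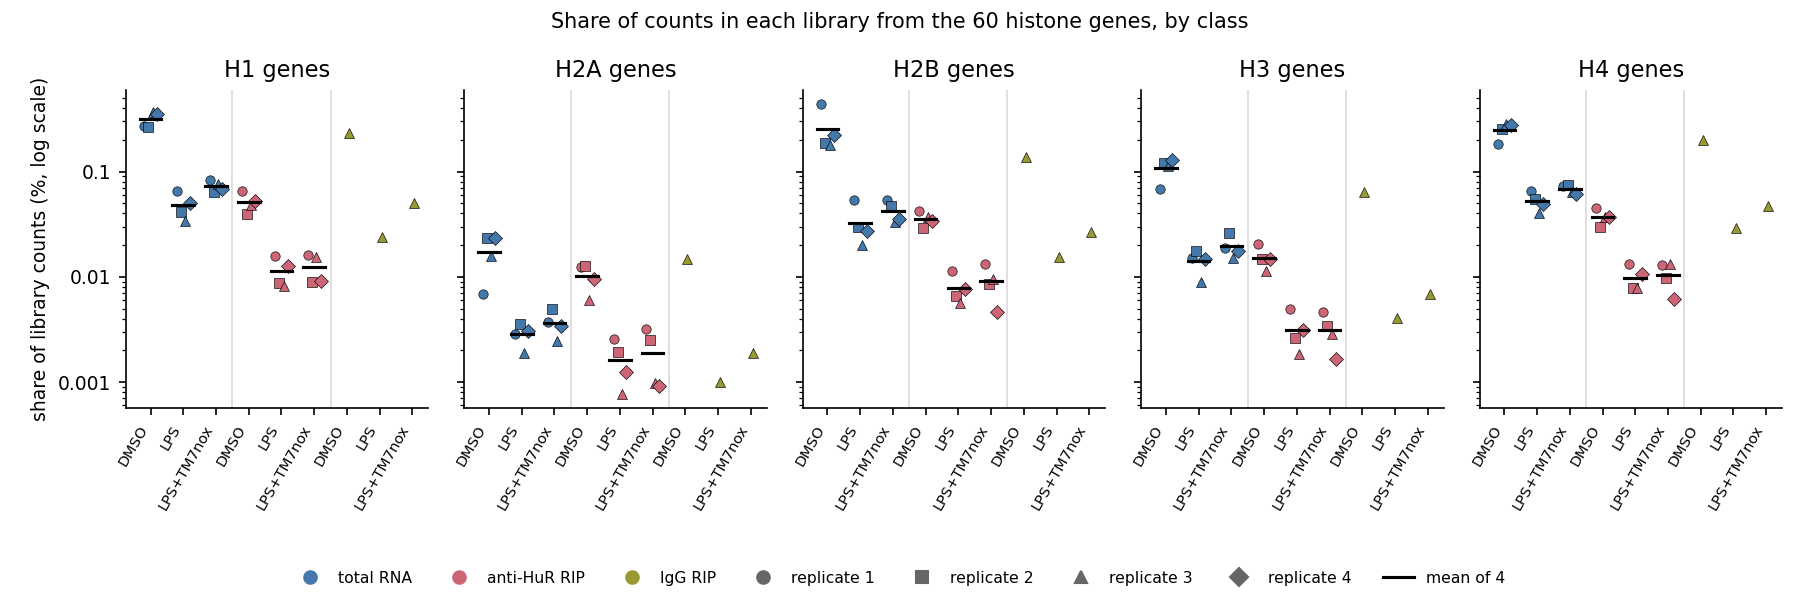
Share of all counts (percent, log axis) taken by the H1, H2A, H2B, H3 and H4 genes in each of the 27 libraries, by assay and treatment, with a bar at the mean of 4. In RNA each class has its highest mean in DMSO, and RNA DMSO replicate 1 lies above the other DMSO libraries for H2B (0.435%) and under them for H2A (0.00689%).

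The first question was how LPS changed each member in total RNA. Of the 60 members, 47 had enough counts to be tested and 46 of them fell with LPS, by edgeR's quasi-likelihood test at a Benjamini-Hochberg adjusted p (FDR) under 0.05. Over all genes tested, 21.7% fell. No member rose, where 20.2% of all genes tested rose. The median log2 fold change of the tested members was -2.61, against -0.04 over all genes tested. The libraries of the 2 groups did not overlap for 38 members, a count whose share over all genes is not given. The filter on low counts could pass a member through DMSO alone, which was so for 2 of the 47. Of the 13 members not tested, 7 had no count in any of the 27 libraries (H1f7, H2ac1, H2ac18, H2ac19, H2bc18, H3c13 and H3c14). The other 6 included H3c15, H2ac11 and H2ac21, the most abundant of them.

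Among the linker histones, 6 of 7 tested fell, where 21.7% of all genes tested fell. H1f2 (chr13:23922791-23924350, plus strand), a main linker histone of dividing cells, had 564, 538, 776 and 762 CPM in DMSO replicates 1 to 4 and 181, 125, 109 and 174 CPM in LPS. All DMSO libraries lay above all LPS libraries. The log2 fold change was -2.19 (SE 0.189, FDR 5.6e-07), a level 4.58-fold lower. H1f4, also an S phase linker histone, had 369, 434, 563 and 594 CPM in DMSO and 168, 117, 110 and 162 in LPS. Its groups did not overlap either, and its log2 fold change was -1.84 (FDR 2.32e-06).

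H1f1 and the linker histones made outside S phase are named after their values were seen. H1f1 had 67.4, 145, 169 and 197 CPM in DMSO and 20.2, 16.4, 12.3 and 22.6 in LPS, a log2 fold change of -3.04 (FDR 8.69e-07). H1f0, which lacks the stem-loop, had 35.6, 48.6, 49.2 and 53.6 CPM in DMSO and 20.0, 15.9, 18.6 and 22.4 in LPS, with a log2 fold change of -1.32 (FDR 1.35e-05). Groups did not overlap for either gene. H1f10, which also lacks the stem-loop, was the tested member that was not called (log2 fold change -0.18, FDR 0.897).

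In the core classes, 9 of 9 tested H2A genes fell, 12 of 12 H2B genes, 9 of 9 H3 genes and 10 of 10 H4 genes. Over all genes tested, 21.7% fell. The class median log2 fold changes were -2.58, -2.75, -2.82 and -2.47. H2ac6 and H4c2 passed the filter through RNA DMSO alone, the group where they are high. Of the H2A genes, H2ac10 (chr13:23718076-23718474, plus strand) had 2.12, 7.00, 3.73 and 4.11 CPM in DMSO and 1.33, 0.580, 0.584 and 0.530 in LPS. Its groups did not overlap, and its log2 fold change was -2.56 (SE 0.539, FDR 0.00155). H2ac20 had 6.15, 36.6, 18.5 and 36.3 CPM in DMSO and 6.54, 9.29, 5.50 and 9.61 in LPS, a log2 fold change of -1.71 (FDR 0.00253). DMSO replicate 1 lay among the LPS libraries for H2ac20, so its groups overlapped.

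Of the H2B genes, H2bc3 had 74.4, 254, 202 and 288 CPM in DMSO and 37.0, 40.4, 23.8 and 34.7 in LPS. Its groups did not overlap and its log2 fold change was -2.61 (FDR 1.41e-05). H2bc8 (chr13:23755570-23756187, plus strand) had 2027, 249, 260 and 264 CPM in DMSO and 202, 59.3, 37.6 and 50.5 in LPS. Replicate 1 was the highest library of both groups, and that of DMSO was several times the rest. The log2 fold change was -3.07 (SE 0.769, FDR 0.0052) with all libraries, -1.56 (FDR 0.0213) without RNA DMSO replicate 1 and -3.91 (FDR 0.0014) without RNA LPS replicate 1. H2bc21 (chr3:96128435-96131054, plus strand), with a transcript of 2620 bases and no stem-loop found, had 1.91, 3.55, 1.99 and 3.02 CPM in DMSO and 1.41, 0.806, 0.447 and 0.530 in LPS. Its groups did not overlap, and its log2 fold change was -1.77 (SE 0.572, FDR 0.0226).

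Of the H3 genes, H3c8 (chr13:23719592-23720121, plus strand) had the largest change of all members. It had 164, 69.4, 52.6 and 62.8 CPM in DMSO and 8.38, 3.93, 0.893 and 3.37 in LPS. Its log2 fold change was -4.44 (SE 0.635, FDR 6.79e-05), or 21.7-fold lower. It was -3.91 without RNA DMSO replicate 1 and -5.03 without RNA LPS replicate 1. H3c2 had 67.8, 137, 162 and 144 CPM in DMSO and 30.5, 22.1, 13.2 and 17.3 in LPS, a log2 fold change of -2.65 (FDR 1.92e-05). Neither gene had overlapping groups. H3c6 had 29.5, 173, 134 and 194 CPM in DMSO and 21.6, 39.2, 19.9 and 35.8 in LPS, with a log2 fold change of -2.21 (FDR 0.00074). Its DMSO replicate 1 lay within the LPS range.

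Of the H4 genes, H4c4 had 333, 601, 614 and 641 CPM in DMSO and 227, 211, 164 and 200 in LPS. Its log2 fold change was -1.47 (FDR 1.32e-05). H4c8 (chr13:23715220-23715689, plus strand) had 125, 310, 322 and 340.3 CPM in DMSO and 54.7, 64.4, 37.7 and 53.6 in LPS. The groups overlapped for neither gene. The log2 fold change of H4c8 was -2.41 (SE 0.263, FDR 5.67e-06).

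The fall was also seen by sequence class, beside the 21.7% of all genes tested that fell. Of members with the stem-loop, 44 of 44 tested fell, with a median log2 fold change of -2.63, and of those without it 2 of 3, with a median of -1.32. Of members with at least 50% unique windows, 28 of 29 fell, and of those with under 50%, 18 of 18. Without RNA DMSO replicate 1, 47 of 48 tested members fell. With only replicates 1 and 2, 32 were called. Of the members named by the rule, H2ac10 (FDR 0.0799), H2ac20 (FDR 0.181), H2bc8 (FDR 0.0514) and H3c6 (FDR 0.134) lost their calls there.

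**Figure D2:**
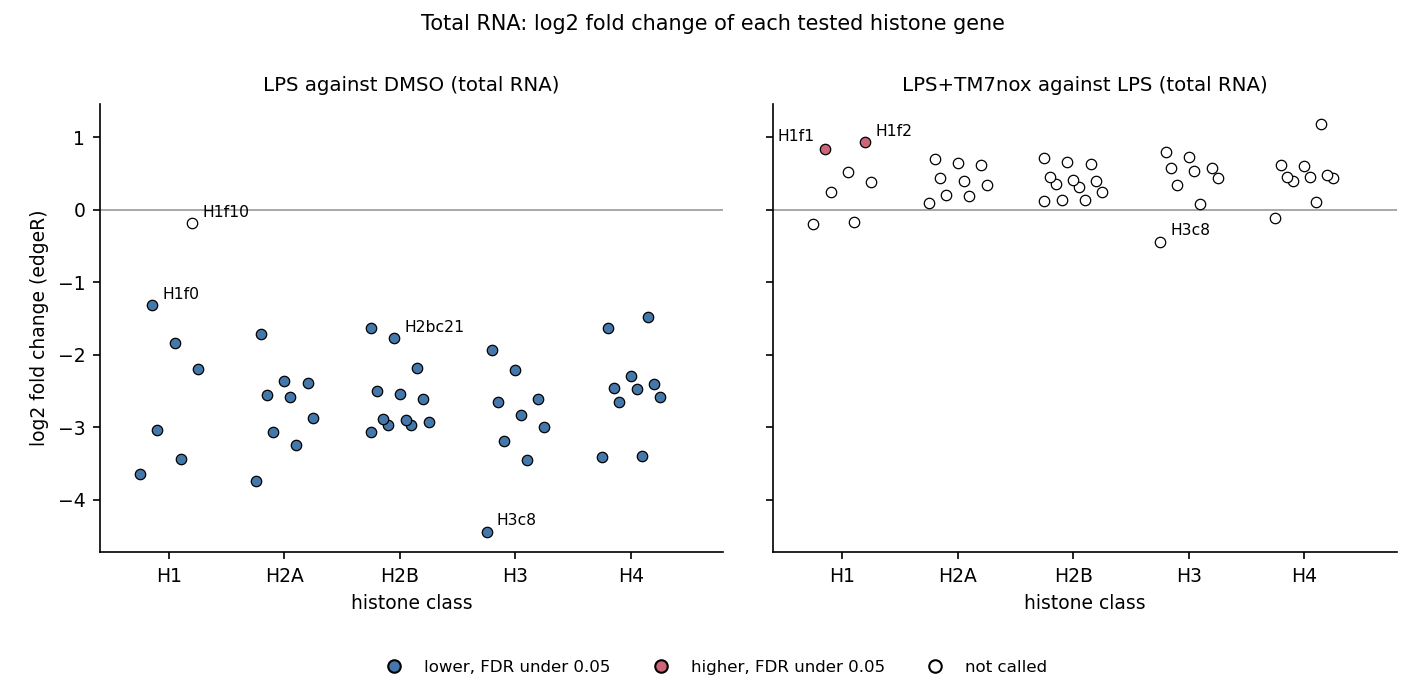
Log2 fold change of each tested member in total RNA by histone class, for LPS against DMSO and for LPS+TM7nox against LPS, with called members marked (edgeR, FDR under 0.05). For LPS against DMSO the 47 members lie between -4.44 and -0.18, and for LPS+TM7nox against LPS between -0.44 and 1.18, with H1f1 and H1f2 called.

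Genes that work with histones in S phase fell too. The list of S phase genes, 30 genes of DNA replication, nucleotide supply and cyclins, was chosen with earlier results of these data known. LPS lowered 27 of them and raised none, where 21.7% of all genes tested fell and 20.2% rose. Their median log2 fold change was -1.20. Tk1, thymidine kinase, had the largest fall, with a log2 fold change of -3.08 (FDR 5.18e-06). Fen1, Mcm10 and Rfc3 were not called. Of 16 histone chaperones, which carry histones to and from DNA, 9 fell and 2 rose, against the same shares of all genes. Chaf1b, a subunit of the chromatin assembly factor CAF-1, fell by 1.95 on the log2 scale (FDR 1.84e-05). Daxx, a chaperone of the variant H3.3, rose by 2.70 (FDR 3.09e-07).

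Most factors of histone mRNA synthesis and decay were not called. Of 20 such genes, 14 did not pass the test, 4 rose (Tut7, Lsm10, Hinfp and Cpsf2) and 2 fell (Casp8ap2 and Npat), where 20.2% of all genes tested rose and 21.7% fell. Tut7, a terminal uridylyltransferase that acts in histone mRNA decay, rose by 1.44 on the log2 scale (FDR 6.11e-07). Casp8ap2, a component of histone locus bodies, fell by 1.14 (FDR 2e-06). Slbp had 23.3 ± 6.11 CPM (SD, n = 4) in DMSO and 19.4 ± 2.72 in LPS, and was not called (log2 fold change -0.31, FDR 0.299). Of 8 tested genes for replication-independent histone variants, 4 fell (H2ax, Cenpa, H2az1 and H2az2) and 1 rose. H2ax, which is phosphorylated at DNA breaks, fell by 1.56 (FDR 0.000103), and H3f3b, which encodes H3.3, rose by 1.33 (FDR 1.11e-06).

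**Figure D3:**
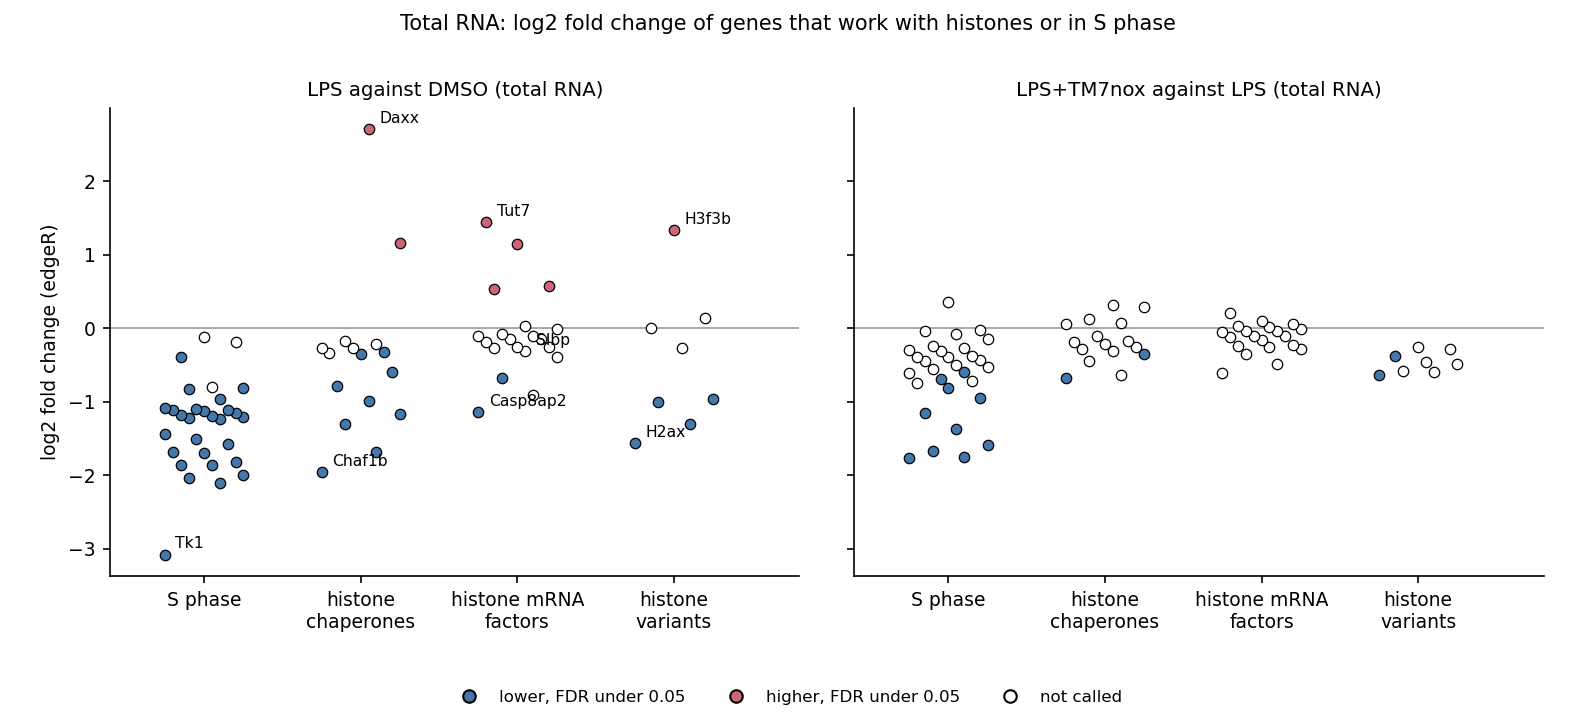
Log2 fold change in total RNA of the tested S phase genes, histone chaperones, histone mRNA factors and replication-independent histone variants, for LPS against DMSO and LPS+TM7nox against LPS, with called genes marked (edgeR, FDR under 0.05). In LPS against DMSO 27 of 30 S phase genes are called lower, while the histone mRNA factors include 4 called higher and 2 called lower.

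The second question was what TM7nox changed in cells given LPS. In total RNA, 2 of 47 members rose, H1f2 and H1f1, and none fell, where 13.8% of all genes tested were called in either direction. H1f2 had 283, 237, 320 and 284 CPM in LPS+TM7nox, all above the 109 to 181 CPM of LPS. Its log2 fold change was 0.93 (SE 0.183, FDR 0.00366), or 1.91-fold higher. H1f1 had 30.2, 26.4, 33.3 and 37.1 CPM, all above its 12.3 to 22.6 in LPS, with a log2 fold change of 0.83 (SE 0.259, FDR 0.0468). With the replicate number as a block, 7 members rose, these 2 among them. The call of H1f1 was lost on library totals (FDR 0.052), with replicates 1 and 2 only (FDR 0.49) and without any 1 of the 8 libraries other than LPS replicate 4 (FDR 0.0548 to 0.13). The call of H1f2 was lost with replicates 1 and 2 only (FDR 0.214), where no member was called. With replicates 3 and 4 only 12 members rose, and with no filter 13 did.

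The other 45 members did not pass the threshold. The median log2 fold change of the 47 was 0.44, with 43 values above 0 and 4 under it. Unadjusted p was under 0.05 for 9 members, and groups did not overlap for 9. The shares of all genes for these counts are not given, so neither is read as a trait of the members. H1f4 had 230, 169, 208 and 190 CPM, against 110 to 168 in LPS, with a log2 fold change of 0.52 (FDR 0.072). It passed the threshold in 5 of 15 alternatives: with the replicate block (FDR 0.0244), by DESeq2 (FDR 0.0461), with no filter on low counts (FDR 0.0227), with replicates 3 and 4 only (FDR 0.018) and without LPS replicate 1 (FDR 0.045). H3c6 had 36.0, 69.4, 41.6 and 54.0 CPM, against 19.9 to 39.2, with a log2 fold change of 0.79 (FDR 0.243), and passed with the replicate block (FDR 0.0446), with replicates 3 and 4 only (FDR 0.0381) and with no filter (FDR 6e-05).

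The members described next were not called. With replicates 3 and 4 only, H2bc3 (FDR 0.0219), H4c4 (FDR 0.00674), H4c8 (FDR 0.0309) and H2bc8 (FDR 0.000471) passed, and with no filter H2bc3 did (FDR 0.00238). H2bc3 had 51.8, 66.6, 44.4 and 47.7 CPM, against 23.8 to 40.4 in LPS, with a log2 fold change of 0.63 (FDR 0.196). H4c4 had 266, 287, 246 and 251 CPM, against 164 to 227, with a log2 fold change of 0.39 (FDR 0.165). All LPS+TM7nox libraries lay above all LPS libraries for these 2 genes, while the groups of the next 5 overlapped. H2bc8 had 195, 121, 84.5 and 79.0 CPM, against 37.6 to 202 in LPS. Its log2 fold change was 0.45 (FDR 0.76), 1.30 without LPS replicate 1 and 0.91 with replicates 3 and 4 only. H4c8 had 71.3, 88.9, 65.6 and 59.5 CPM, against 37.7 to 64.4, with a log2 fold change of 0.44 (FDR 0.298). For H2bc8 replicate 1 was the highest library of both groups, and for H4c8 replicate 2 was. H3c8, the member with the largest fall under LPS, had 4.37, 5.07, 1.27 and 1.49 CPM, with a log2 fold change of -0.44 (FDR 0.716). H1f0 had 14.4, 14.1, 17.6 and 20.7 CPM, with a log2 fold change of -0.20 (FDR 0.468). H2ac10 had 1.17, 1.36, 0.158 and 0.807 CPM, with a log2 fold change of 0.21 (FDR 0.862).

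In the same comparison, 10 of 30 S phase genes fell and none rose, where 6.40% of all genes tested fell. Their median log2 fold change was -0.51. They were Ccna2, Ccne1, Ccne2, Cdc6, Dut, Mcm3, Mcm4, Mcm7, Rrm2 and Uhrf1. Chaf1a and Supt16 fell among the chaperones, H2az1 and H3f3b among the variants, and no histone mRNA factor was called. Slbp had 12.7 ± 4.11 CPM (SD, n = 4) in LPS+TM7nox, a log2 fold change of -0.61 against LPS (FDR 0.0957) and of -0.92 against DMSO (FDR 0.00429). Of the 9 macrophage markers, 3 fell (Fcgr1, Itgam and Spi1), against the same share of all genes.

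Against DMSO, cells with LPS and TM7nox also had less histone RNA. Of 47 tested members 46 fell, where 23.6% of all genes tested fell, and the median log2 fold change was -2.21. H3c8 again had the largest fall, with a log2 fold change of -4.88 (SE 0.653, FDR 2.99e-05). For H1f2 the value was -1.26 (SE 0.184, FDR 6.37e-05). For H2ac10 it was -2.35 (SE 0.535, FDR 0.00235). With only replicates 1 and 2, 28 members were called. This comparison shares its libraries with the others, so its values are not independent of them.

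In the anti-HuR libraries, histone RNA was also lower with LPS. The members took 0.150 ± 0.0259% of counts in RIP DMSO (SD, n = 4; 0.126 to 0.186%), 0.0338 ± 0.0104% in LPS (0.0242 to 0.0476%) and 0.0370 ± 0.0118% in LPS+TM7nox (0.0226 to 0.0502%). DMSO lay above both other groups, which overlapped each other. By gene, 47 of 48 tested members fell with LPS, where 21.2% of all genes tested fell. Of the 48, 7 passed the filter through RIP DMSO alone, the group where they are high, so the filter favoured their fall. Groups did not overlap for 46, a count whose share over all genes is not given. The median log2 fold change was -1.83. H2bc6, whose span overlaps that of H1f4, was the tested member not called (log2 fold change -0.36, FDR 0.0944).

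Of the linker histones, H1f2 had 306, 166, 194 and 183 CPM in RIP DMSO and 123, 80.6, 70.6 and 79.2 in LPS, with no overlap and a log2 fold change of -1.28 (SE 0.250, FDR 0.000644). H1f6, known from testis, had 76 counts over the 4 DMSO libraries and 5 over the LPS libraries, and a fitted log2 fold change of -3.27, which was -4.06 without RIP LPS replicate 1. It reached the count cut in all libraries of RIP DMSO and of no other RIP group, so it was tested only because it was high there, and its value supports no ranking. The same holds for 7 of the 48 members tested in RIP, H3c15 and H2ac11 among them. Of the core histones, H3c8 had 20.0, 12.7, 9.44 and 11.4 CPM in RIP DMSO and 3.05, 1.26, 0.777 and 1.04 in LPS, with a log2 fold change of -3.12 (FDR 2.53e-05). H4c8 had 56.5, 36.8, 42.4 and 41.2 CPM and then 19.3, 12.1, 10.9 and 13.3, with a log2 fold change of -1.68 (FDR 3.65e-05). The groups did not overlap for either.

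H2ac10 and H2bc21, which were higher in the anti-HuR libraries than in RNA, fell as well. H2ac10 had 84.7, 92.8, 36.0 and 43.7 CPM in RIP DMSO and 25.1, 23.1, 5.59 and 3.65 in LPS, with a log2 fold change of -2.18 (SE 0.629, FDR 0.0103). Replicates 1 and 2 were above replicates 3 and 4 in both groups, and the groups did not overlap. H2bc21 had 47.1, 30.9, 31.9 and 28.1 CPM in DMSO and 12.3, 7.46, 4.09 and 2.61 in LPS, with a log2 fold change of -2.39 (SE 0.425, FDR 0.000289). H2bc21 had no overlap between groups. H3c15, also higher in RIP than in RNA, had 349 counts over the DMSO libraries and 44 over the LPS libraries, but was tested only because it was high in RIP DMSO.

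Between LPS+TM7nox and LPS, none of 48 members was called in the anti-HuR libraries by edgeR's quasi-likelihood test, where 16.2% of all genes tested were called. No member had an unadjusted p under 0.05, and DESeq2 called 0. The median log2 fold change was 0.09, with 27 values above 0 and 21 under it. With the replicate block, 2 members were called, 1 higher and 1 lower. H1f2, for example, had 122, 79.0, 122 and 74.1 CPM in RIP LPS+TM7nox, a range that overlaps that of LPS. H2ac10 had 30.4, 34.3, 5.99 and 7.56 CPM, again with replicates 1 and 2 highest.

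Between LPS+TM7nox and DMSO in the anti-HuR libraries, 46 of 48 members fell, where 23.1% of all genes tested fell, with a median log2 fold change of -1.78. The 48 include the 7 that passed the filter through RIP DMSO alone. H2ac6 (log2 fold change -0.95, FDR 0.251) and H2bc8 (-0.82, FDR 0.0965) were not called. H2ac11 had 65 counts over the DMSO libraries and 3 over the LPS+TM7nox libraries. It too passed the filter through RIP DMSO alone, the group where it is high, so its value supports no ranking. Its fitted log2 fold change was -3.78, and -4.66 without RIP LPS+TM7nox replicate 1, and its call was lost with replicates 1 and 2 only (FDR 0.0538). On TMM-scaled library sizes DMSO had 14.3 times as much, with an exact 95% interval of 4.69 to 71.3, and on library totals 23.0 times (7.54 to 114.5). Both intervals cover counting error only.

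The third question was which members were recovered with anti-HuR beyond their level in total RNA. RIP over RNA is on a TMM scale, which sets the typical gene at 0, so it is a relative and not an absolute recovery. In DMSO, 41 of 50 tested members were lower in RIP than in RNA, where 33.4% of all genes tested were lower. Another 4 were higher, where 37.0% of all genes tested were higher. The median log2 ratio was -1.94, against 0.04 over all genes. By share of counts, RNA DMSO held 6.32 times as much histone RNA as RIP DMSO, or 6.29 times without RNA DMSO replicate 1.

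The 4 members that were higher were H2ac10, H2bc21, H3c15 and H1f6. H3c15 reached the count cut in all libraries of RIP DMSO and of no RNA group, and H1f6 in all libraries of no group; neither was tested in RNA alone. The filter thus passed H3c15 through the group where it is high, and H1f6 through single libraries, most of its counts being in RIP DMSO. H2ac10 had 84.7, 92.8, 36.0 and 43.7 CPM in RIP against 2.12, 7.00, 3.73 and 4.11 in RNA of DMSO cells. All RIP libraries lay above all RNA libraries. The log2 ratio was 3.94 (SE 0.630, FDR 5.15e-06), or 15.4-fold, and it was 4.16 with replicates 1 and 2 only and 3.40 with replicates 3 and 4 only. H2ac10 is the member with the run of 27 T shown above, whose part in the recovery was not tested. Its GENCODE M39 model of 399 bases ends with the coding sequence, so the T run lies outside that model, and the model used for the counting is not known. Of its windows, 20.3% are unique.

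H2bc21 and H3c15, both on chromosome 3, are named after their values were seen. H2bc21, all of whose windows are unique, had 47.1, 30.9, 31.9 and 28.1 CPM in RIP and 1.91, 3.55, 1.99 and 3.02 in RNA. Its groups did not overlap, and its log2 ratio was 3.75 (SE 0.490, FDR 2.44e-07), or 13.5-fold. H3c15 (chr3:96145424-96146443, minus strand) had 3.93, 3.94, 2.06 and 2.31 CPM in RIP and 0, 0.438, 0.0643 and 0.296 in RNA. The RIP value rests on 349 counts and the RNA value on 28, and the log2 ratio was 3.71 (SE 0.643, FDR 1.54e-05). H3c15 has 36.5% unique windows. H1f6 had 76 counts in RIP and 24 in RNA, with a log2 ratio of 1.66 (SE 0.673, FDR 0.0323).

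Most of the other tested members were lower in RIP. Of the H1 genes 6 of 8 were lower and of the H2A genes 7 of 10, where 33.4% of all genes tested were lower. H2ac6 and H4c2 passed this filter through RNA DMSO alone, the group where they are high. Log2 ratios were -1.53 for H1f2 (FDR 3.15e-06) and -1.95 for H1f4 (FDR 1.99e-08). The class medians were -1.40 for H2A, -2.01 for H2B, -2.13 for H3 and -2.13 for H4. H4c8 was the member with the largest difference in this direction. It had 56.5, 36.8, 42.4 and 41.2 CPM in RIP against 125, 310, 322 and 340.3 in RNA, without overlap, and a log2 ratio of -2.54 (SE 0.285, FDR 1.91e-08).

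Of the other abundant members, H2bc3 had 42.1, 32.1, 41.4 and 37.5 CPM in RIP against 74.4 to 288 in RNA, with a log2 ratio of -2.34 (FDR 2.79e-07). H4c4 had 190, 119, 155 and 142 CPM against 333 to 641, with a log2 ratio of -1.76 (FDR 1.12e-07). RIP lay under RNA in all libraries of both genes. H2bc8 had 150, 77.4, 137 and 63.8 CPM against 249 to 2027, with a log2 ratio of -2.50 (FDR 0.000641), and -1.23 without RNA DMSO replicate 1. H2ac20 had 11.6, 9.36, 6.77 and 15.4 CPM against 6.15 to 36.6, with overlap and a log2 ratio of -1.12 (FDR 0.0118). That call was lost with replicates 1 and 2 only (FDR 0.169), by DESeq2 (FDR 0.0546) and without RNA DMSO replicate 2 (FDR 0.0553) or replicate 4 (FDR 0.0573). H3c2 had a log2 ratio of -2.26 (FDR 2.62e-06) and H3c6 of -1.89 (FDR 0.00017), a call that was lost with replicates 1 and 2 only (FDR 0.0939).

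**Figure D4:**
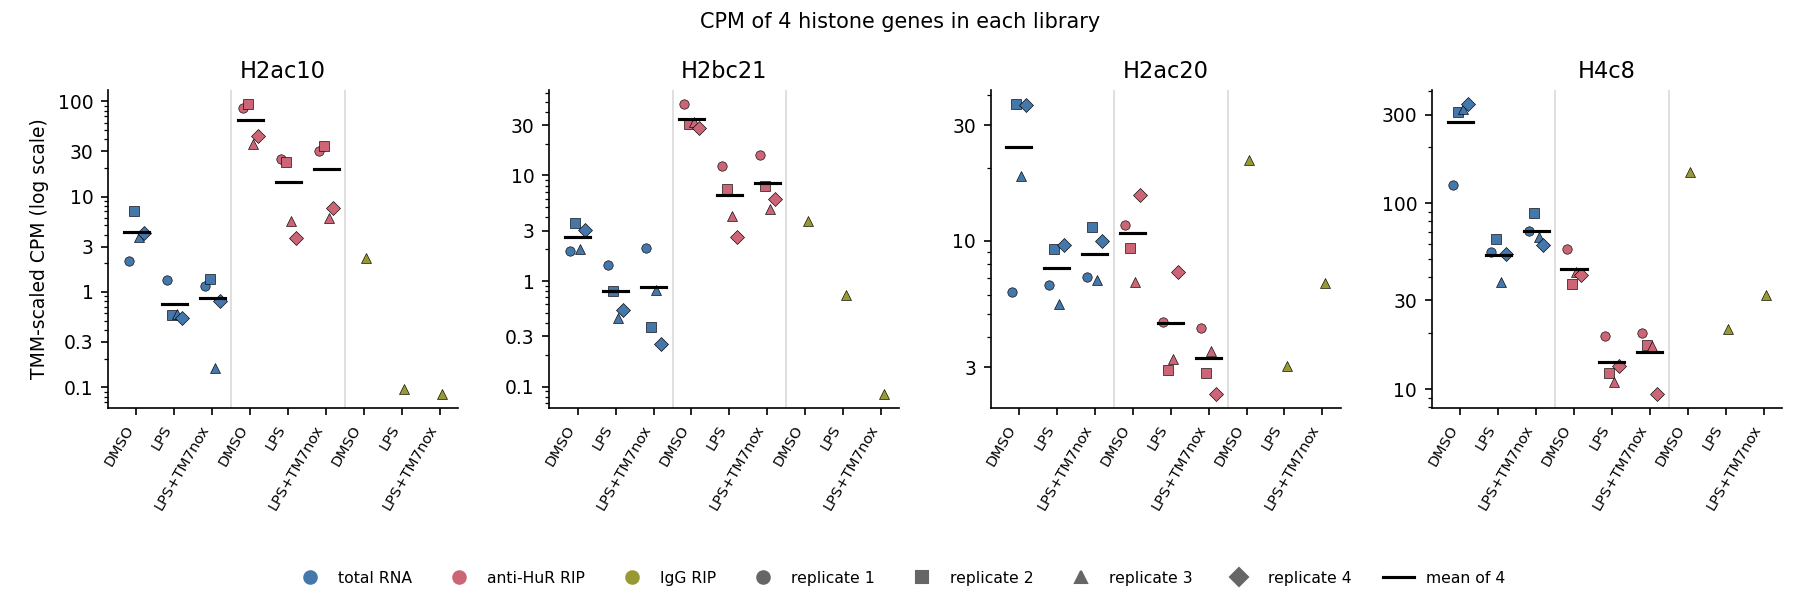
TMM-scaled CPM (log axis) of H2ac10, H2bc21, H2ac20 and H4c8 in each library, by assay and treatment, with marks for the replicate and bars at the mean of 4. H2ac10 and H2bc21 are higher in anti-HuR than in total RNA in each treatment, H4c8 is lower, and H2ac20 overlaps in DMSO.

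In LPS, 30 members were lower in RIP than in RNA, where 30.8% of all genes tested were lower, and 3 were higher, where 32.9% were higher. The median log2 ratio was -1.12. H2ac10 (4.31, SE 0.688, FDR 6.52e-06), H2bc21 (3.10, SE 0.513, FDR 1.06e-05) and H3c15 (2.76, SE 0.730, FDR 0.00193) were the 3 that were higher. H3c15 entered this fit through RIP DMSO alone, in the assay where it is high, so its value supports no ranking. H4c3 had the largest difference in the other direction (-1.94, SE 0.285, FDR 1.99e-06). For H2ac10 the ratio was 4.69 with replicates 1 and 2 only and 3.01 with replicates 3 and 4 only.

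In LPS+TM7nox, 36 members were lower, where 34.8% of all genes tested were lower, and 4 were higher, where 35.2% were higher. The median log2 ratio was -1.57. H2ac10 (4.51, SE 0.690, FDR 2.73e-06), H2bc21 (3.35, FDR 3.1e-06) and H3c15 (2.85, FDR 0.00191) were again called higher, H3c15 with the same limit. H1f6 was the other, on 4 counts in RIP and 0 in RNA, too few for a fold. H4c3 was lowest again, at -2.34 (FDR 1.01e-07). Of 10 tested H2A genes, 1 was called lower in LPS and 3 in LPS+TM7nox.

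**Figure D5:**
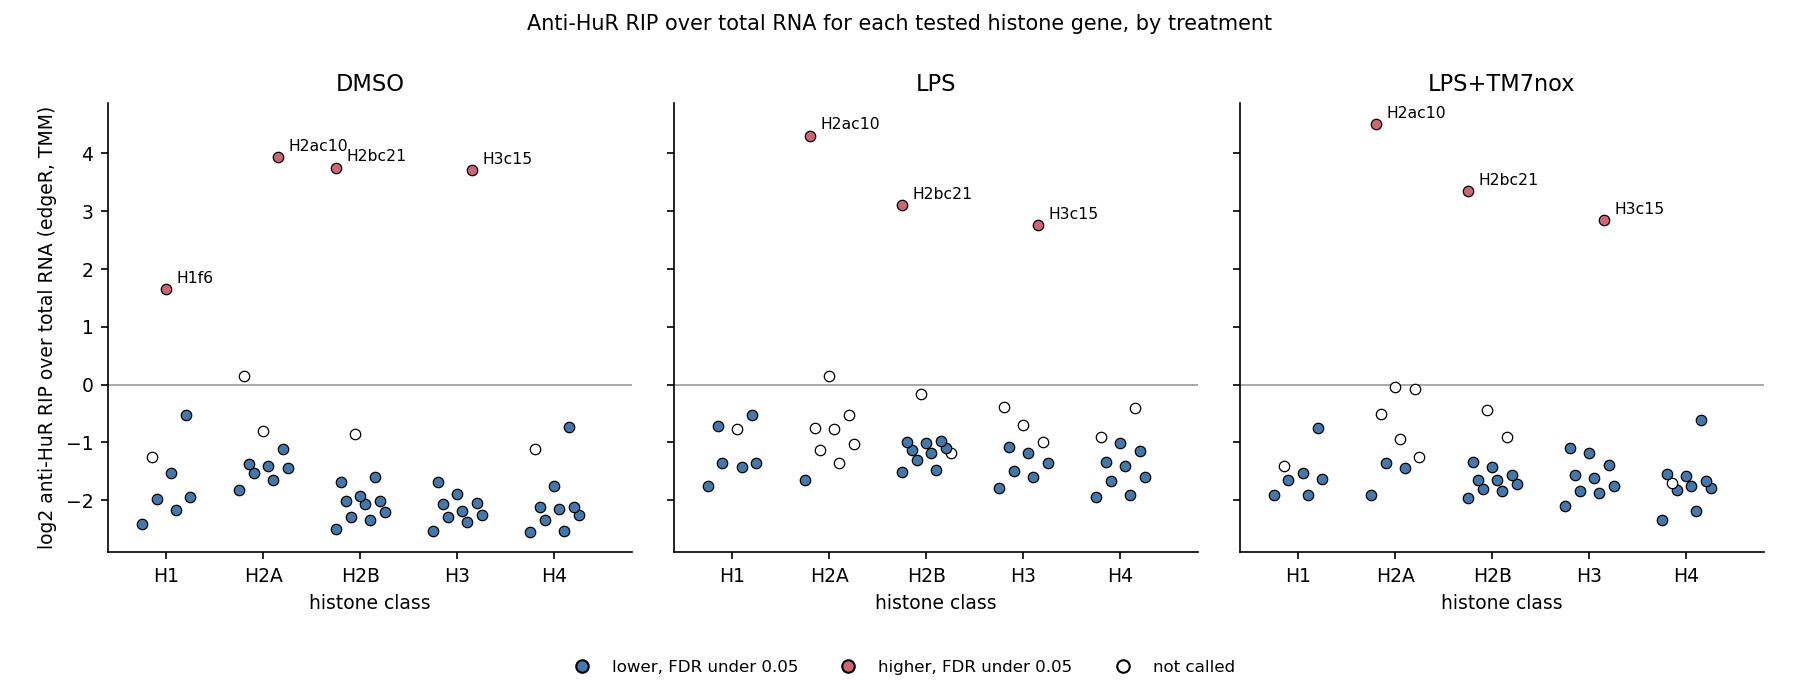
Log2 ratio of anti-HuR RIP over total RNA for each tested member by histone class, within DMSO, LPS and LPS+TM7nox, with called members marked (edgeR, FDR under 0.05) and values that rest on 3 counts or fewer in a group left out. Most members lie under 0 in each treatment, while H2ac10, H2bc21 and H3c15 lie at 2.76 or above. H3c15 passed the filter through RIP DMSO alone, in the assay where it is high.

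Whether LPS changed the RIP over RNA ratio was tested as an interaction. None of 50 members was called by edgeR's quasi-likelihood test, where 0.0419% of all genes tested were called, while 10 had an unadjusted p under 0.05 and DESeq2 called 2. The share of all genes with such an unadjusted p is not given. The differences were above 0 for 47 members and under it for 3, with a median of 0.70 on the log2 scale. H1f2 had a difference of 0.81 (FDR 0.619), H2ac10 of 0.37 (FDR 0.962) and H2bc6 of 1.19 (FDR 0.384). Without RNA DMSO replicate 1, 3 members were called. For LPS+TM7nox against LPS, 0 members were called, where 0.00699% of all genes tested were called, 1 had an unadjusted p under 0.05 and DESeq2 called 0. There the median difference was -0.29, with 8 values above 0 and 42 under it. These interactions share the LPS libraries.

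The last comparison set anti-HuR against IgG over the 3 treatments. With 1 IgG library per treatment, it was tested with treatment as a covariate and not within a treatment. Of 49 tested members, 22 were lower with anti-HuR than with IgG, where 34.2% of all genes tested were lower. Another 4 were higher, where 33.8% were higher. The median log2 ratio was -0.58. The members took 0.653% of counts in IgG DMSO (95% Wilson interval 0.649 to 0.656%), 0.0736% in IgG LPS (0.0725 to 0.0747%) and 0.133% in IgG LPS+TM7nox (0.131 to 0.135%). These intervals cover counting error only, since no molecular identifiers are stated.

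H2ac10, H2bc21, H3c15 and H1f6, the members higher in RIP than in RNA of DMSO cells, were also the 4 that were higher than in IgG. H2ac10 had 87 counts in IgG DMSO, 3 in IgG LPS and 1 in IgG LPS+TM7nox, or 2.26, 0.0959 and 0.0860 CPM. Its log2 ratio was 5.52 (SE 0.848, FDR 1.02e-05), 4.54 with replicate 3 libraries only and 7.32 without the IgG DMSO library. H2bc21 had 3.72, 0.735 and 0.0860 CPM in IgG, with a log2 ratio of 3.50 (SE 0.520, FDR 6.87e-06). H3c15 had 22, 2 and 0 counts in IgG, with a log2 ratio of 2.76 (FDR 0.000828), and H1f6 6, 0 and 0, with 2.27 (FDR 0.0339). H1f6 again reached the count cut in all libraries of RIP DMSO only. The anti-HuR comparisons with RNA and with IgG share the anti-HuR libraries.

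H4c3 was the member with the largest difference toward IgG. It had 104, 28.3 and 50.7 CPM in IgG DMSO, LPS and LPS+TM7nox, and 35.5, 25.9, 32.3 and 26.2 in RIP DMSO. Its log2 ratio was -1.45 (SE 0.245, FDR 3.18e-05). H4c4 was also lower with anti-HuR (-1.09, FDR 2.9e-05), while H1f2 was not called (-0.44, FDR 0.104). By class, 4 of 7 tested H1 genes, 9 of 12 H2B, 8 of 10 H4, 1 of 10 H3 and 0 of 10 H2A genes were lower. Over all genes tested, 34.2% were lower. Without the IgG DMSO library, 17 members were called, 5 higher and 12 lower.

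The sizes of these differences depend on the scale. Without TMM scaling, on library totals, the median of all genes shifted by -0.28 for LPS against DMSO in RNA and by -0.32 for LPS+TM7nox against DMSO, and by -0.63 for each in RIP. The shift was -0.76, -0.998 and -0.98 for RIP over RNA in the 3 treatments and -1.02 for anti-HuR over IgG. With edgeR's RLE scaling it was 0.16, 0.18, 0.22 and 0.13 for the last 4 comparisons. In RNA, LPS raised 2500 genes and lowered 2690 with TMM scaling, while on library totals 27.7% of calls were higher. LPS+TM7nox against DMSO gave 2926 higher and 2924 lower, and 29.0% higher on library totals. In RIP the same 2 comparisons gave 3201 higher and 2889 lower (16.8% higher on library totals) and 3412 higher and 3141 lower (18.2%). RIP over RNA gave 5300 higher and 4775 lower in DMSO (34.7%), 4708 and 4401 in LPS (25.8%) and 5031 and 4975 in LPS+TM7nox (29.6%). Anti-HuR over IgG gave 5067 higher and 5127 lower (25.8%). On library totals 3 members were still higher in RIP than in RNA of DMSO cells, H2ac10 among them with a log2 ratio of 3.22, and 44 were lower. For anti-HuR over IgG 44 members were called on library totals, 3 higher and 41 lower.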

How the data were processed

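The authors deposited 1 table of raw counts, whole numbers of reads per gene with no normalization, for 27 libraries with symbols and biotypes per the file headers. All its columns were mapped to samples by their labels, and 0 per-sample columns were left out. Libraries were made from 7 ng of RNA with the SMART-Seq Stranded kit per the labels' protocols. FastQC 0.11.9, STAR, HTSeq, DESeq2 and GRCm39 are named in the submitters' processing notes. No annotation release, strand setting or treatment of reads that map to several genes is given in the sources used here.

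The test was the two-sided quasi-likelihood test of edgeR 4.0.16 (R 4.3.3), with TMM scaling, filterByExpr at a minimum count of 10 and FDR under 0.05 over all genes tested. TMM assumes that most genes do not differ, so each fold is relative to the typical gene. RNA libraries were fitted together, as were RIP libraries. RIP over RNA and its change came from 1 fit of those 24, and anti-HuR over IgG from 15 libraries with treatment as a covariate. CPM are on 1 TMM scale over the 27 libraries. DESeq2 1.42.0, other scalings, no filter, a replicate block and left-out libraries were alternatives. The fit was tested on simulated data. The replicate numbers come from the labels, and all 24 same-numbered pairs of groups correlated over 0.1 in their deviations from the group means (0.114 to 0.392). For replicate 3 of LPS and LPS+TM7nox in RNA another replicate correlated more (0.208 against 0.175). The same held for replicate 2 of DMSO and LPS+TM7nox in RIP (0.151 against 0.114). Pairing between RNA and RIP was not examined. The numbers were taken to pair the samples within an assay. The main fits are unblocked, and blocked values are given where they change a call.

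Coordinates, stem-loops and windows are from the GENCODE M39 annotation on GRCm39, matched by gene, and promoters from RefSeq on GRCm38.p6. The members and lists were chosen with earlier results of these data known. Members were named by rule: the 2 with the highest mean CPM per class over the RNA and RIP libraries, the largest called change in each direction per comparison, and the 3 most abundant of those not tested. Slbp, Elavl1 and the largest called change of each list were added. H1f0, H1f1, H1f10, H2ac6, H2bc6, H2bc11, H2bc21, H3c15, H4c2 and H1f6 were also named after their values were seen.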

Additional observations from a re-analysis of the deposited data

Results flagged for a closer look

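In groups of 4 libraries, 10 values lay far from the other 3, by Dixon's 95% limit on the gap relative to the range of the group, among 132 groups examined. Chance alone marks about 1 group in 20. Of these values, 5 were in RNA DMSO replicate 1, the shallowest library. There H2bc8 had 2027 CPM (249.1 to 264 in the others), H3c8 163.9 (52.6 to 69.4), H4c4 332.6 (600.6 to 640.8) and H4c8 124.6 (309.7 to 340.3), and the H2B genes took 0.435% of counts (0.181 to 0.223%). H2bc8 held 9561 of the 11873 H2B counts of RNA DMSO replicate 1, and the cause of these values was not tested.

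In RNA LPS replicate 1, H2bc8 had 201.7 CPM (37.6 to 59.3 in the others), H2ac10 1.33 (0.530 to 0.584) and H1f6 0.0428 (0 in the others, 1 count in all). H2ac11 had 0.0633 CPM in RNA LPS+TM7nox replicate 3 and 0 in the others. H4c3 had 20.96 CPM in RIP LPS replicate 1, against 13.6 to 14.8.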

How the results depend on the processing

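Of 834 recomputed values, 772 kept their direction and their side of the threshold, or stayed within 1.5 times the count. The share of all genes called is given for the main fits only. The count of members called depended most on the setting for LPS+TM7nox against LPS in RNA (2 members). It was 1 with library totals, 13 with no filter, 7 with the replicate block, 0 with replicates 1 and 2 only, 12 with replicates 3 and 4 only, and 1 to 2 with a library left out (1 without LPS replicate 2 or 3 or LPS+TM7nox replicate 2 or 4). In RIP the count of 0 became 1 with no filter, 2 with the replicate block, and 0 to 1 with a library left out (1 without RIP LPS replicate 1). LPS+TM7nox against DMSO in RNA gave 28 with replicates 1 and 2 only. The change of RIP over RNA with LPS gave 2 by DESeq2, 8 with no filter, 1 with replicates 3 and 4 only and 0 to 3 with a library left out (3 without RNA DMSO replicate 1). Anti-HuR over IgG (26 called) gave 44 on library totals and 17 to 28 with a library left out (17 without the IgG DMSO library). The replicate block changed no other call of a named member and moved no other count by over 1.5 times. Over coding genes that are not mitochondrial, the histone share was 1.30% in RNA DMSO, 0.196% in LPS and 0.280% in LPS+TM7nox.

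For LPS+TM7nox against LPS in RNA, 2 members that were not called changed sign. H2ac10 had a log2 fold change of -0.29 with replicates 3 and 4 only, and with a library left out it ran from -0.12 (without LPS+TM7nox replicate 2) to 0.62 (without LPS replicate 1). H3c2 had -0.013 with replicates 3 and 4 only, and with a library left out it ran from -0.11 (without LPS+TM7nox replicate 1) through -0.08 (LPS replicate 3) and -0.06 (LPS+TM7nox replicate 2) and -0.0017 (LPS replicate 4) to 0.34 (LPS replicate 1). With a library left out, the other counts ran from 44 to 47 for LPS against DMSO in RNA, 42 to 46 for LPS+TM7nox against DMSO, 47 to 49 and 45 to 47 for the same 2 in RIP, and 41 to 47, 31 to 36 and 35 to 41 for RIP over RNA. The cause of these changes was not tested, beyond fewer libraries in the fits that leave some out. Members with few counts, such as H1f6 and H2ac11, are limited by depth. The use of replicate 3 libraries only for IgG, with 36 members called, was chosen after seeing the data, as was the histone share without RNA DMSO replicate 1, 0.941%.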
